A study of Mus musculus with 8 samples.

Results

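Neurotrophins, receptors of the GDNF family and the growth cone protein gene *Gap43* were followed in cultured dermal fibroblasts with and without *Tgfb1*. The 9 genes were chosen by name, with earlier results of these data known. They were the ligand genes *Bdnf*, *Ntf3* and *Gdnf*, the receptor genes *Ngfr*, *Ntrk2*, *Gfra1*, *Gfra2* and *Gfra3*, and the nerve repair marker *Gap43*. Of these, 8 were found among the 15111 genes of the table, and *Ntf3* was not analysed here. In TGFβ1FKO mice (Tgfb1fl/fl:Col1a2-CreERT) both *Tgfb1* alleles are floxed, and a Cre recombinase that tamoxifen activates is driven by the promoter of *Col1a2*, a collagen gene that fibroblasts use strongly, so that deletion reaches cells in which this promoter is active. Control mice carry the same floxed alleles (Tgfb1fl/fl) without Cre. All mice were fed tamoxifen and were 10 weeks old when killed. Cells of whole back skin were grown on fibronectin, first with serum and then for 72 h without it. From the cultures, 4 libraries per group were sequenced to compare gene expression with and without fibroblast TGFβ1. Between 16988998 and 21806579 reads per control library and between 17445002 and 23071528 per TGFβ1FKO library fell on the listed genes. Neither the labels nor the methods say whether each library comes from a separate mouse, so that the p-values measure the spread between libraries, which may be technical.

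Neurotrophins are secreted proteins that keep neurons alive and guide the growth of their axons. Each binds a tyrosine kinase receptor of the Trk family, and all of them bind the shared receptor p75NTR, the product of *Ngfr*. Ligands of the GDNF family bind a GFRα protein held on the cell surface by a lipid anchor, which then engages the kinase RET or the adhesion molecule NCAM. In skin, fibroblasts and Schwann cells are known sources of such factors for the sensory and sympathetic nerve endings, and Schwann cells that have lost contact with axons raise *Ngfr* and *Gap43*.

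*Tgfb1* (ENSMUSG00000002603, chromosome 7 of GRCm38, 25687002 to 25705077), the deleted gene, was measured first as a check of the labels. Control fibroblasts held 1374 ± 85.4 normalised counts (SD, n = 4), TGFβ1FKO fibroblasts held 277.3 ± 42.5, and no TGFβ1FKO library reached the lowest control library. The fibroblast markers were all measured in every library. *Col1a1*, the most abundant of them, had a mean of 659135 normalised counts over the 8 libraries, and none of the 8 markers was called in either direction by limma or DESeq2, with no unadjusted p under 0.05.

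A gene was called if its adjusted p was under 0.05 and its log2 fold change beyond 0.6 in size. In limma's test over all genes, 0 of the 8 genes passed both thresholds, which 0.0860% of all genes passed. The lowest sum of reads over the 8 libraries in the table was 41, since the authors left out genes with few counts. *Gfra3* had a sum of 46, of which 44 were control reads, so it is in the table only through the group where it was high and is left out of the next count. At an unadjusted p under 0.05 in limma's test, 4 of the other 7 genes were lower in TGFβ1FKO fibroblasts and 0 were higher. The 4 were *Ngfr*, *Gfra1*, *Gfra2* and *Gap43*. Of all genes, 3.87% were lower and 3.59% higher at this p. Among the 14724 genes that were not in the table through 1 group alone, 530 (3.60%) were lower at this p and 523 were higher. In the exact permutation test (two-sided) p was 0.114 for *Ngfr*, 0.0857 for *Gfra1*, 0.0571 for *Gfra2* and 0.0286 for *Gap43*. The groups did not overlap in 1 of the 8 genes, *Gap43*, which was lower, whereas 2.10% of all genes were lower and 1.69% higher without overlap. edgeR called 0 of the 8 genes with either scaling, against 0.132% of all genes with the authors' size factors and 0.146% with TMM. DESeq2's test against a fold change of 0 called *Gap43* alone, with 0.371% of all genes called by that test, and DESeq2's test against a log2 fold change of 0.6 in size called 0 of the 8 and 0.0993% of all genes. The median log2 fold change of the 7 genes without *Gfra3* was -0.37, and that of all genes was 0.00.

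**Figure D1:**
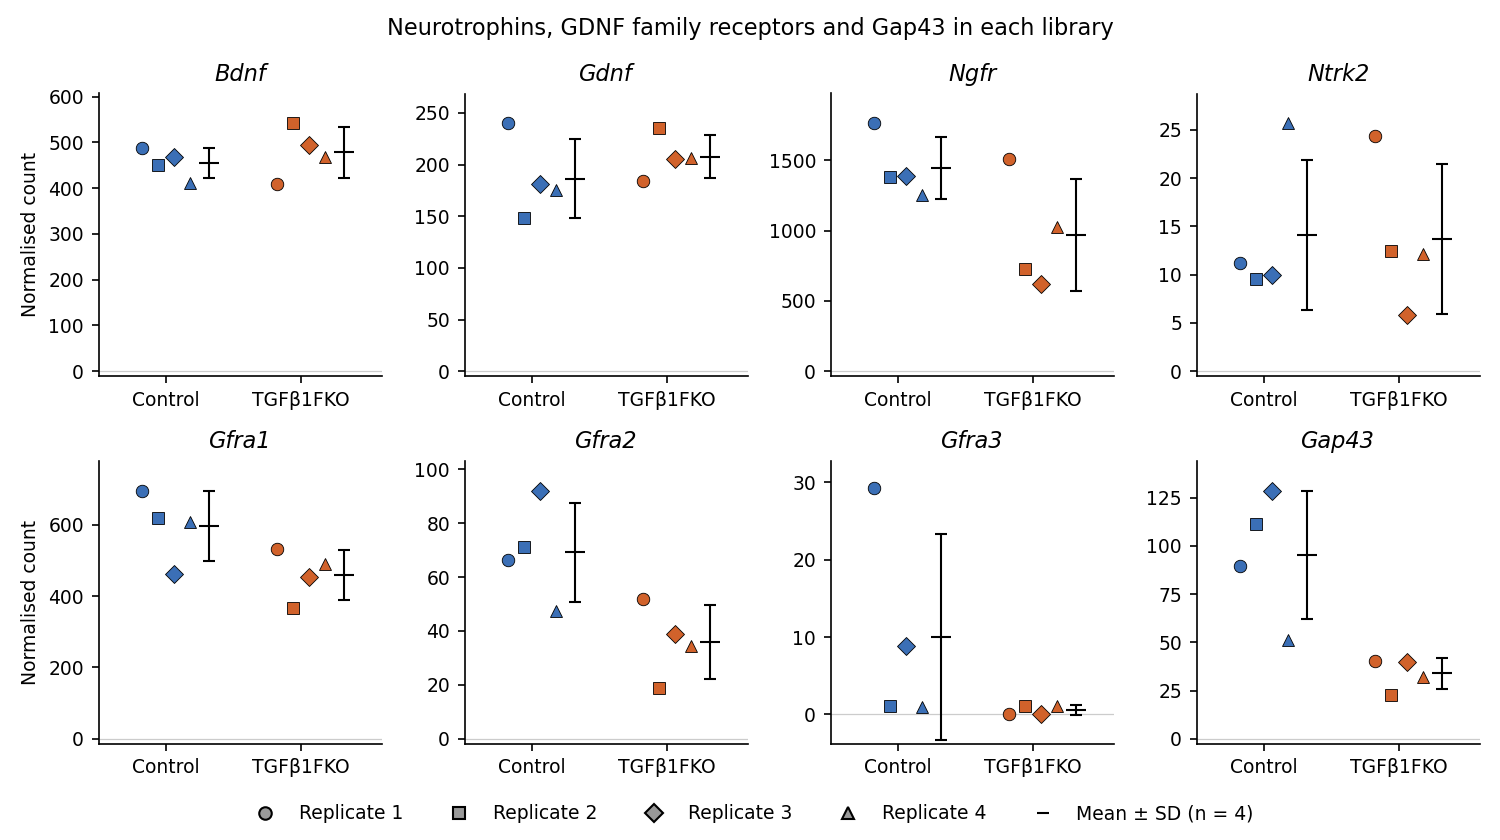
Normalised counts of the 8 genes in each library, with control libraries in blue and TGFβ1FKO libraries in orange, symbols for the replicate number and bars for the mean ± SD (n = 4). The groups are apart only for *Gap43*, whose lowest control library (51.4) lies above the highest TGFβ1FKO library (40.5).

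To compare levels between genes, normalised counts were divided by the length of all exons in kilobases. On this scale *Ngfr* stood highest in control fibroblasts with 420 ± 64.1 (SD, n = 4) normalised counts per kb, followed by *Gfra1* with 109 ± 17.9 and *Bdnf* with 73.0 ± 5.24. The level of *Gap43* was 62.5 ± 21.9 per kb, that of *Gdnf* 50.7 ± 10.5, that of *Gfra2* 19.6 ± 5.18 and that of *Gfra3* 5.03 ± 6.67. *Ntrk2* came last with 0.73 ± 0.40 per kb. The control ranges of neighbours overlapped between *Bdnf* and *Gap43*, *Gap43* and *Gdnf*, *Gfra2* and *Gfra3*, and *Gfra3* and *Ntrk2*, so that these pairs cannot be ranked by their level. Another scale, chosen after seeing the data, used the median length of coding transcripts in place of all exons. With it *Gfra1* reached 429 per kb beside 420 for *Ngfr*, and *Ntrk2* rose to 4.62 per kb beside 5.03 for *Gfra3*. *Bdnf* reached 116 per kb, and *Gfra2* rose to 46.8 per kb beside 50.7 for *Gdnf*. The overlaps of neighbours given above were taken on the exon scale only. On either scale the transcript of p75NTR stood far above that of TrkB.

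**Figure D2:**
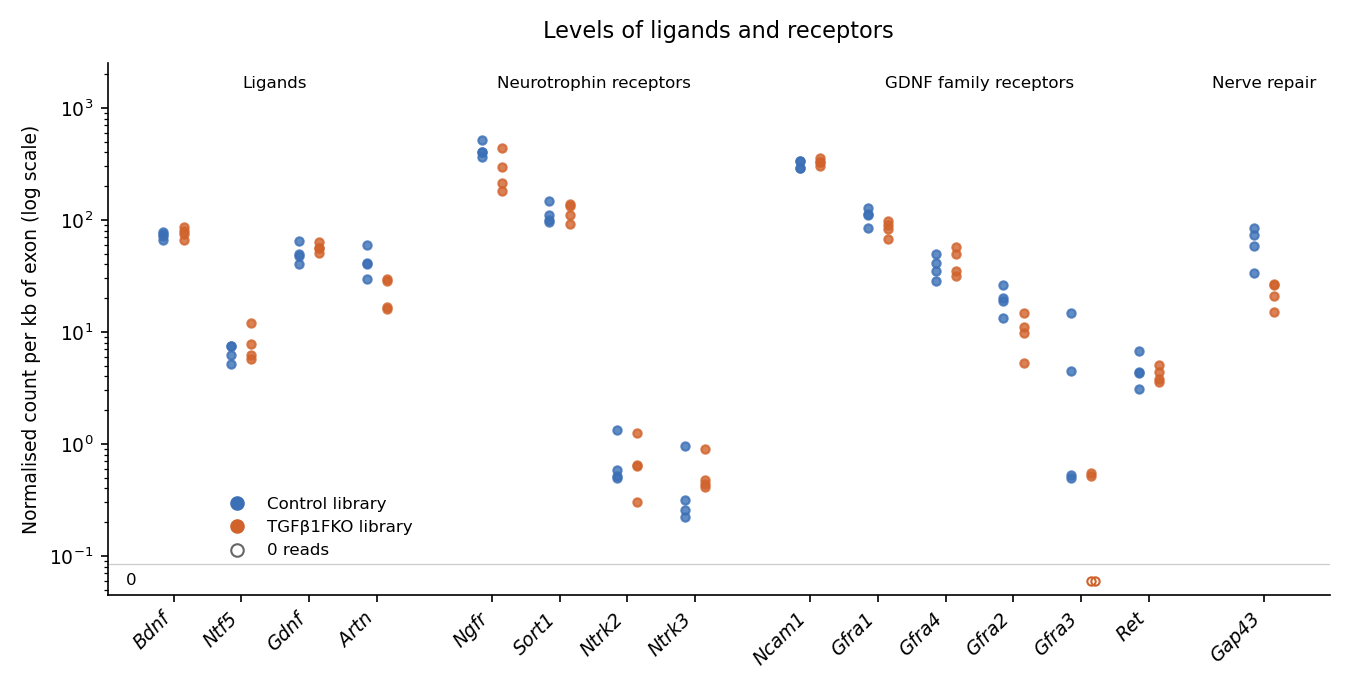
Normalised counts per kb of exon on a log scale for ligands, receptors and *Gap43*, with 1 point per library, control in blue and TGFβ1FKO in orange, and open points for libraries with 0 reads. *Ngfr* (420 per kb in control) and *Ncam1* (313 per kb) lie far above *Ntrk2* (0.73 per kb) and *Ntrk3* (0.44 per kb).

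*Bdnf* (ENSMUSG00000048482, chromosome 2, 109674700 to 109727007) encodes brain-derived neurotrophic factor, the ligand of the kinase encoded by *Ntrk2*. It had 488, 450.5, 467 and 411 normalised counts in the control libraries and 408, 542, 494 and 469 in the TGFβ1FKO libraries. The ranges of the groups overlapped, and the lowest and the highest value of all were both in TGFβ1FKO libraries. The log2 fold change of 0.07 (standard error 0.09) had a 95% interval from -0.13 to 0.27 (adjusted p = 0.896, limma), so that a difference of 0.6 lies outside the interval in both directions. With single libraries left out, it lay between 0.01 and 0.14. *Bdnf* overlaps the antisense gene *Gm45346*, and because the libraries do not keep the strand, reads of the 2 cannot be told apart.

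*Gdnf* (ENSMUSG00000022144, chromosome 15, 7810846 to 7837575), which encodes the glial cell line-derived factor that binds GFRα1, had 240, 149, 181 and 176 normalised counts in control and 184, 235, 205 and 206 in TGFβ1FKO libraries. Control replicate 1 held the highest and control replicate 2 the lowest value of all, and the groups overlapped. The log2 fold change was 0.17 with a 95% interval from -0.13 to 0.47 (adjusted p = 0.810, limma). It was 0.30 without control replicate 1 and 0.07 without control replicate 2. Among the other ligands of these families, *Ntf5*, the gene of neurotrophin 4, was low in both groups with 17.5 ± 2.87 and 21.2 ± 7.66 normalised counts (SD, n = 4). *Nrtn* and *Pspn*, the remaining ligand genes of the GDNF family, were not analysed here.

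*Artn* (ENSMUSG00000028539, chromosome 4, 117926162 to 117929763) encodes artemin, the ligand of GFRα3. It had 98.9, 96.7, 144 and 71.1 normalised counts in the control libraries and 71.0, 38.3, 68.1 and 39.9 in the TGFβ1FKO libraries. Every TGFβ1FKO library lay below every control library, but the highest of the former and the lowest of the latter were nearly equal. The log2 fold change was -0.92 (standard error 0.25), and limma's adjusted p was 0.443. The exact permutation test gave p = 0.0286, the smallest that 4 libraries against 4 allow (two-sided). DESeq2's test against 0 gave an adjusted p of 0.0890.

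*Ngfr* (ENSMUSG00000000120, chromosome 11, 95568818 to 95587735) encodes p75NTR, which binds all neurotrophins. It had 1764, 1384, 1386 and 1251 normalised counts in control and 1512, 728, 622 and 1023 in TGFβ1FKO libraries. The first TGFβ1FKO library lay inside the control range, and the other 3 lay below it. The log2 fold change of -0.65 (standard error 0.21) had a 95% interval from -1.11 to -0.18 (adjusted p = 0.536, limma). In the exact permutation test p was 0.114 (two-sided). When single libraries were left out, it ran from -0.89 without TGFβ1FKO replicate 1 to -0.46 without TGFβ1FKO replicate 3, and the lowest adjusted p was 0.0646 in limma's test.

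*Ntrk2* (ENSMUSG00000055254, chromosome 13, 58806569 to 59133970), the gene of the BDNF receptor TrkB, had few reads. Its reads numbered 13, 9, 9 and 26 in the control libraries and 24, 12, 7 and 11 in the TGFβ1FKO libraries. The groups overlapped throughout, with 1 high library in each. The 95% interval of the log2 fold change ran from -1.02 to 0.86, so that a difference of 0.6 in either direction is not excluded. *Ntrk3*, the gene of TrkC, was also low, with 13.1 ± 10.4 normalised counts (SD, n = 4) in control and 16.7 ± 6.84 in TGFβ1FKO fibroblasts. *Sort1*, which encodes sortilin, a coreceptor of p75NTR for the uncleaved neurotrophins, had 852 ± 175.5 normalised counts (SD, n = 4) in control and 899 ± 163 in TGFβ1FKO fibroblasts.

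*Gfra1* had the highest level per kb of the GFRα receptor genes in both groups, and within a group its libraries did not overlap with those of *Gfra2*, *Gfra3* or *Gfra4*. *Gfra1* (ENSMUSG00000025089, chromosome 19, 58235604 to 58455909), the coreceptor of GDNF, had 696, 618, 461 and 608 normalised counts in control and 531, 366, 454 and 489.7 in TGFβ1FKO libraries. Control replicate 3 lay inside the TGFβ1FKO range, and the other control libraries lay above it. The log2 fold change was -0.37 (standard error 0.13, limma's adjusted p = 0.587). Reads of *Gfra1* cannot be told apart from those of the antisense gene *Gm16277*, which overlaps its exons.

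*Gfra2* (ENSMUSG00000022103, chromosome 14, 70890120 to 70979838), the coreceptor of neurturin, had 66.2, 71.2, 92.0 and 47.4 normalised counts in control and 51.7, 18.6, 39.0 and 34.3 in TGFβ1FKO libraries. Only control replicate 4 and TGFβ1FKO replicate 1 crossed, the lowest and the highest of their groups. The TGFβ1FKO mean was 51.9% of the control mean, and the log2 fold change was -0.97 (standard error 0.29, limma's adjusted p = 0.479). The exact permutation test gave p = 0.0571 (two-sided).

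*Gfra3* (ENSMUSG00000024366, chromosome 18, 34689898 to 34720387), the coreceptor of artemin, rested on few reads. There were 34, 1, 8 and 1 reads in the control libraries and 0, 1, 0 and 1 in the TGFβ1FKO libraries. Control replicate 1 alone held 34 of the 44 control reads, and control replicates 2 and 4 held 1 read each, as did TGFβ1FKO replicates 2 and 4. Because the gene passed the authors' filter through its control reads alone, a difference in this direction was to be expected of it. In limma's test the adjusted p was 0.647.

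No signalling partner of the GFRα receptors was called, and their adjusted p-values lay between 0.834 and 0.954 in limma's test. *Ret*, the kinase gene, had 31.3 ± 10.3 normalised counts (SD, n = 4) in control and 28.4 ± 4.52 in TGFβ1FKO fibroblasts. *Ncam1*, the gene of the alternative partner NCAM, had 2711 ± 227.1 and 2847 ± 179 normalised counts (SD, n = 4). Per kb of exon its control level was 313, compared with 4.63 for *Ret*. The antisense gene *Gm11149* overlaps exons of *Ncam1*. *Gfra4*, the coreceptor of persephin, had 83.2 ± 19.8 normalised counts (SD, n = 4) in control and 93.7 ± 25.9 in TGFβ1FKO fibroblasts, and it contains the microRNA gene *Mir6973b*.

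*Gap43* (ENSMUSG00000047261, chromosome 16, 42248442 to 42340651) encodes a protein on the inner face of the membrane of growth cones that is abundant in regrowing axons and is also made by Schwann cells without myelin. It had 89.5, 112, 129 and 51.4 normalised counts in the control libraries and 40.5, 22.8, 39.9 and 32.1 in the TGFβ1FKO libraries. All TGFβ1FKO libraries lay below all control libraries, and control replicate 4 stood closest to them. The mean of the controls was 95.3 ± 33.4 (SD, n = 4) and that of TGFβ1FKO fibroblasts 33.8 ± 8.29, which is 35.5% of the control level. The log2 fold change of -1.42 (standard error 0.28) had a 95% interval from -2.03 to -0.82, with an adjusted p of 0.113 in limma's test. The exact permutation test gave p = 0.0286 (two-sided), the smallest value possible here. The call depended on the test and on 1 library: DESeq2's test against 0 gave an adjusted p of 0.000180, and limma without control replicate 4 gave a log2 fold change of -1.69 and an adjusted p of 0.00743. Over the other tests, scalings and filters, and without other libraries, the adjusted p lay between 0.0834 and 1. With the replicate number as a block, limma's adjusted p was 0.0560.

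**Figure D3:**
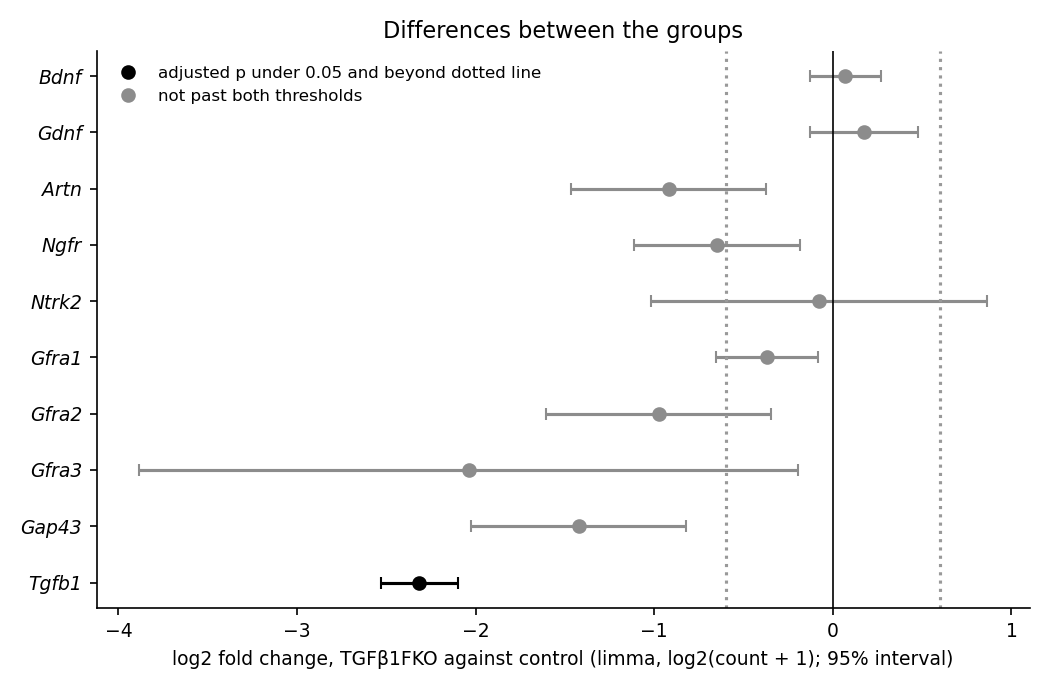
Log2 fold changes of TGFβ1FKO against control fibroblasts from limma on log2(count + 1), with 95% intervals and dotted lines at -0.6 and 0.6. Among the genes shown, *Tgfb1* (-2.31) passed both thresholds, and *Gap43* (-1.42) and *Gfra2* (-0.97) did not.

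**Figure D4:**
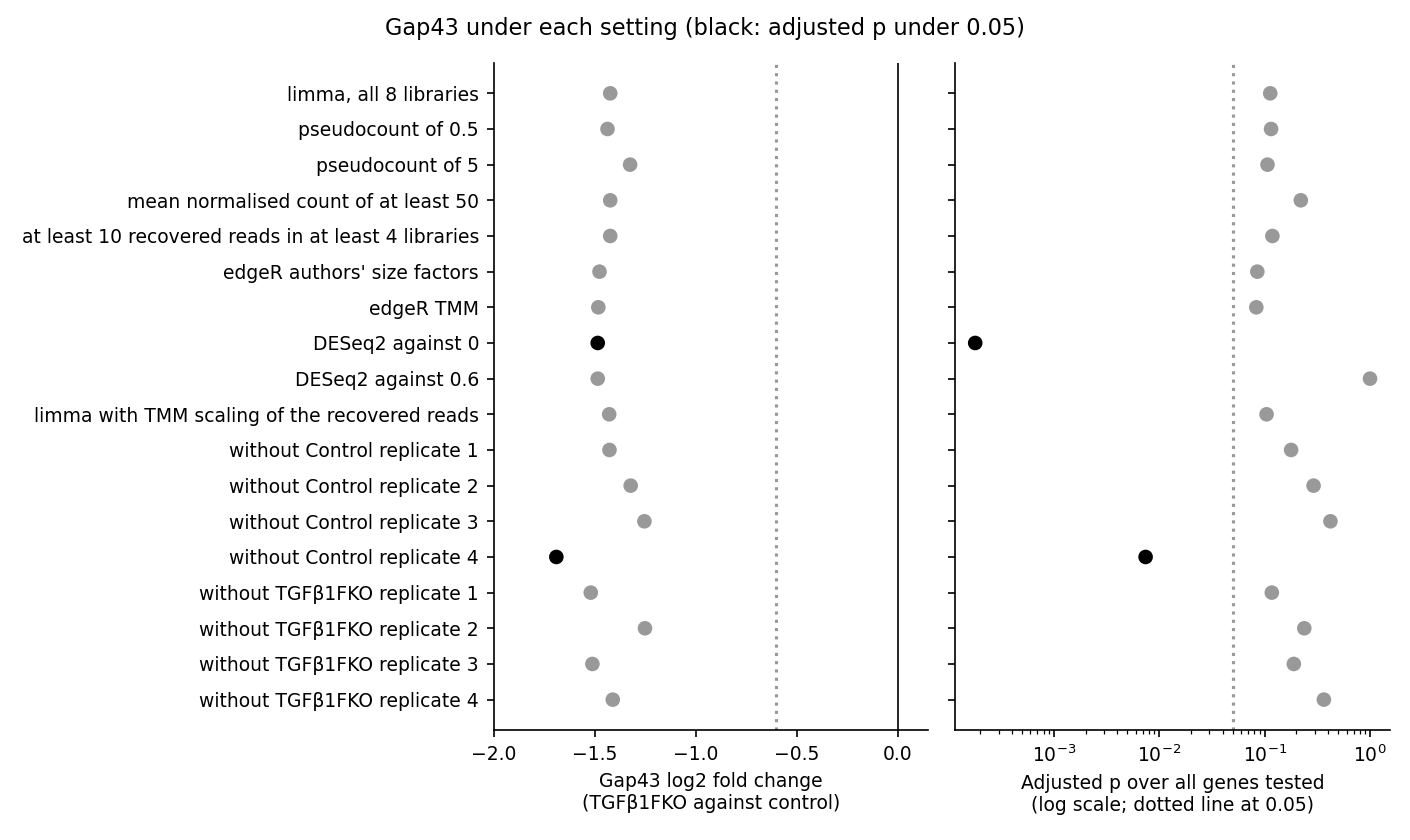
Log2 fold change of *Gap43* and its adjusted p, on a log scale, under the settings shown, with black points for an adjusted p under 0.05. Other thresholds and limma's fit with the replicate number as a block (adjusted p = 0.0560) are not shown. The fold change lay between -1.69 and -1.25 throughout, and the adjusted p was under 0.05 with DESeq2 against 0 (0.000180) and without control replicate 4 (0.00743).

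Of the 9 genes and *Artn*, 7 were matched by symbol to upstream sequences of RefSeq (GRCm38.p6), and *Gap43*, *Gfra2* and *Gfra3* were not. Shown here are the 200 bases from 250 to 51 bases before the start site of *Ngfr* and *Artn*, the 2 matched genes with an unadjusted p under 0.05 whose window lies outside every gene of GENCODE M21, and of *Gdnf* as a ligand whose mean was not lower, at its first start site. The window of *Gdnf* lies outside every gene too. Capitals mark CAGAC, the core of the DNA element that Smad proteins bind, and CANNTG, the E-box, on either strand. These are *Ngfr* (chr11:95587749-95587948, minus strand), *Artn* (chr4:117929814-117930013, minus strand) and *Gdnf* (chr15:7809798-7809997, plus strand).
Ngfr: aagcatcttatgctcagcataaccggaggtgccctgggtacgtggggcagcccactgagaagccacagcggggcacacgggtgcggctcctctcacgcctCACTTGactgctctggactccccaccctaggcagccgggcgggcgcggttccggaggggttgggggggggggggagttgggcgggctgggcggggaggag
Artn: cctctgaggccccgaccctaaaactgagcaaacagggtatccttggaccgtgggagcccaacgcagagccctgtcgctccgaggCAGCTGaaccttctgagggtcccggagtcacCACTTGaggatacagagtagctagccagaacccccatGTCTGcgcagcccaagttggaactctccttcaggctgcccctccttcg
Gdnf: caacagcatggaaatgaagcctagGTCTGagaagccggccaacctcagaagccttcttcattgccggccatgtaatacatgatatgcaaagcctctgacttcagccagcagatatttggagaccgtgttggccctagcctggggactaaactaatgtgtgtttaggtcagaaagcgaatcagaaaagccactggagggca
The *Ngfr* window held 0 matches of CAGAC and 1 of CANNTG, the *Artn* window 1 and 2, and the *Gdnf* window 1 and 0, and no match of the first motif shared a base with the second. Neither ACAAAG nor ACAATG, motifs bound by Sox proteins, was found in these windows (0 matches). Among 32851 windows of the same length and position, 35.8% held CAGAC, 59.0% CANNTG, 13.6% ACAAAG and 8.94% ACAATG. A match is a description of the letters and not of binding.

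The wider pathway was followed with 91 further genes on 10 lists, of which 73 were analysed. None of the 73 passed both thresholds in limma's test, edgeR's or DESeq2's. Of the 73, 2 are in the table only through TGFβ1FKO reads. Of the other 71, 5 were lower and 2 higher in TGFβ1FKO fibroblasts at an unadjusted p under 0.05, and the groups did not overlap in 4 lower genes and 1 higher gene. In the whole table these shares were 3.87% and 3.59%, and 2.10% and 1.69%. Among the 14724 genes not in the table through 1 group alone, 3.60% were lower and 523 genes higher at this p. Without overlap, 1.92% of them were lower and 242 genes higher. Like the 9 genes, the lists were chosen with earlier results of these data known. The median log2 fold change of the 71 genes was -0.03. The lower genes without overlap were *Artn*, the cytokine gene *Lif* (log2 fold change -0.32), the receptor gene *Cntfr* and *Maged1* (-0.06), whose product binds p75NTR. *Cntfr* rested on few reads, with 13, 14, 9 and 12 in control and 5, 9, 11 and 0 in TGFβ1FKO libraries, and its log2 fold change of -1.36 was -0.58 without TGFβ1FKO replicate 4, the library with 0 reads. The higher one was *Rapgef1* (0.16), a guanine nucleotide exchange factor gene. *Shc3*, an adaptor gene with 13 control and 36 TGFβ1FKO reads, is 1 of the 2 genes left out of these counts, and its groups did not overlap either. Adjusted p-values of these 6 genes lay between 0.443 and 0.798 in limma's test.

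By role, the median log2 fold change was 0.06 for 6 receptor genes of the neurotrophins, and the most abundant of these receptors per kb was *Nradd*, a relative of p75NTR, with 368 in control. The 14 adaptor genes of neurotrophin receptors had a median of -0.05 without *Shc3* and were led by *Rack1* with 3734 per kb, and the 6 genes for processing had a median of -0.05. In the GDNF family the 2 further ligand genes were led by *Gdf15*, a distant relative, with 554 per kb, the 5 receptor genes by *Sdc3* with 871 per kb, and the 9 adaptor genes by *Grb10* with 687 per kb, and their median log2 fold changes were -0.34, 0.07 and -0.08. The 8 genes of the CNTF family had a median of -0.08, and the 9 other neurotrophic factors, led by *Ptn* with 1051 per kb of exon, had one of -0.14. With the median length of coding transcripts *Manf* stood above *Ptn* in control, with 2862 per kb beside 1729. The 12 genes of nerve repair had a median of 0.06 without the 1 of them that is in the table only through TGFβ1FKO reads. *Marcks* stood highest among them with 3979.9 per kb of exon. *Basp1*, whose product is a relative of GAP43 in growth cones, had 4998 ± 336 normalised counts (SD, n = 4) in control and 5444 ± 167 in TGFβ1FKO fibroblasts. With the median length of coding transcripts *Basp1* stood above *Marcks* in control, with 4507 per kb beside 3980. No other gene of that list was lower without overlap of the groups as *Gap43* was.

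*Ngfr* and *Gap43* are also used by Schwann cells, whose markers differed between the groups. Of 16 Schwann cell markers 13 were analysed, and 2 of these are in the table only through control reads. Of the other 11, 7 were lower in TGFβ1FKO fibroblasts without overlap and 0 higher, and 3 were called by limma. Of all genes, 2.10% were lower without overlap and 0.0860% were called. Among the 14724 genes not in the table through 1 group alone, 1.92% were lower without overlap and 11 were called lower. The marker lists, too, were chosen with earlier results of these data known. *Sox10*, a transcription factor gene and defining marker, had 132, 148, 207 and 72.1 normalised counts in control and 19.3, 7.25, 18.3 and 21.1 in TGFβ1FKO libraries (log2 fold change -3.01, adjusted p = 0.00499, limma). *S100b*, another defining marker, had 43.9, 46.8, 58.8 and 41.5 normalised counts in control and 33.4, 17.6, 24.9 and 38.8 in TGFβ1FKO libraries (log2 fold change -0.76, adjusted p = 0.536, limma). Neither was at 0 in any library, and both were lower in every TGFβ1FKO library than in every control library. The sum of all 13 markers, in which *Pmp22* took a mean of 7307, overlapped between the groups, with 8205, 8989, 9801 and 9593 in control and 8177, 10033, 7621 and 9173 in TGFβ1FKO libraries. Without *Pmp22*, whose own log2 fold change was 0.06, and without the 2 markers that are in the table only through control reads, the sums of the other 10 were 1804, 2003, 2475 and 1528 in control and 1375, 1208, 1207 and 1298 in TGFβ1FKO libraries and did not overlap. Fewer cells of a type and less RNA per cell cannot be told apart in such bulk libraries, and the part of Schwann cell RNA in the values of *Gap43*, *Ngfr*, *Gfra2* and *Gfra3* was not tested.

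The order of the libraries within a group was shared by some of these genes. In control fibroblasts *Gap43*, *Gfra2*, *Sox10* and *S100b* were highest in replicate 3, then in replicates 2 and 1, and lowest in replicate 4. In TGFβ1FKO fibroblasts *Gap43*, *Gfra2* and *Artn* were highest in replicate 1, then in replicates 3 and 4, and lowest in replicate 2. *Sox10* and *S100b* were also lowest in replicate 2, but this did not hold for all Schwann cell markers. Of the 13 analysed, 9 were lowest in control replicate 4 within the controls, and 6 were lowest in TGFβ1FKO replicate 2 within the TGFβ1FKO libraries. *Ngfr* followed another order and was highest in replicate 1 of both groups. *Gfra3* was highest in control replicate 1.

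**Figure D5:**
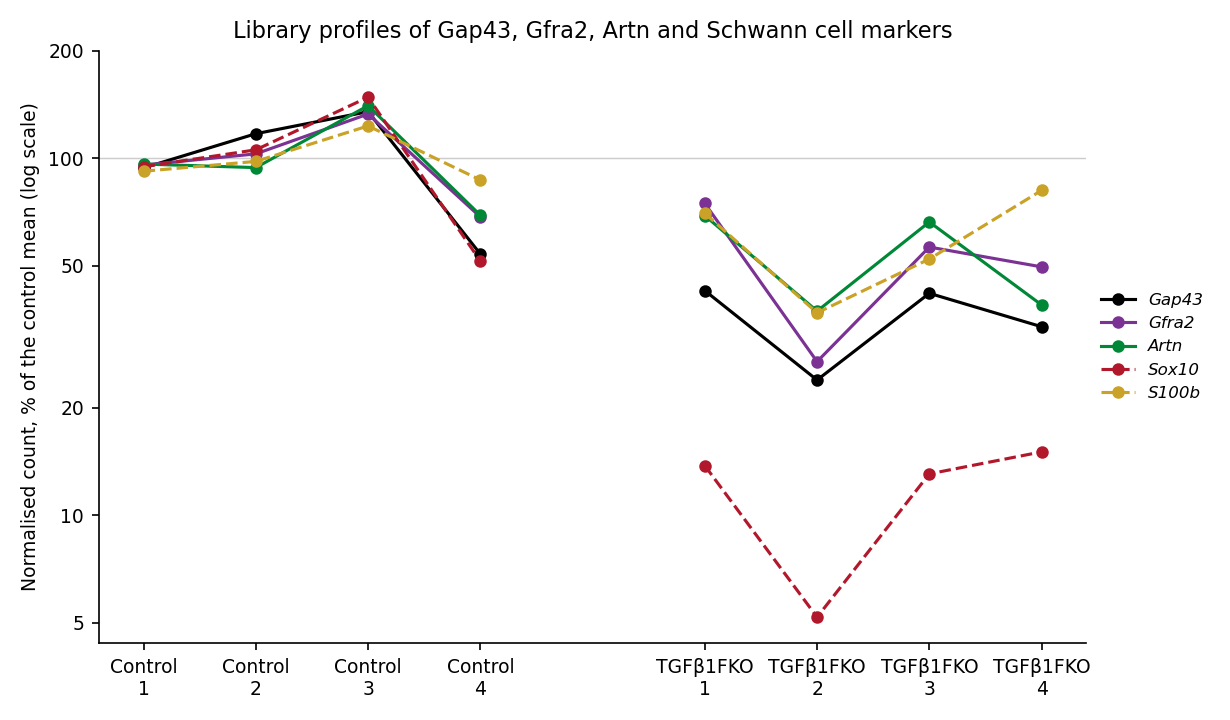
Normalised counts of *Gap43*, *Gfra2*, *Artn* and 2 defining Schwann cell markers in each library as a percentage of the gene's control mean, on a log scale, with lines that join the values of 1 gene within a group. Control replicate 4 and TGFβ1FKO replicate 2 hold the lowest values of their groups for all 5 genes.

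Other cell types were followed in the same way. No defining neuronal marker was among the genes analysed. The 3 neuronal markers that were, led by *Tubb3* with a mean of 555 normalised counts, summed to between 505 and 1142 in control and between 582 and 996 in TGFβ1FKO libraries. The perineurial marker *Itgb4* was lower without overlap (log2 fold change -0.48, adjusted p = 0.555, limma), but the sums of the 5 perineurial markers overlapped, with 2416 to 2821 in control and 2424 to 2845 in TGFβ1FKO libraries, and *Tjp1* as the most abundant. The 7 endothelial markers, led by *Tek* with a mean of 249 normalised counts, summed to 661, 803, 750 and 529 in control and to 515, 534, 517 and 511 in TGFβ1FKO libraries, and the groups overlapped. All 7 had log2 fold changes below 0 (median -0.47), and 2 were lower at an unadjusted p under 0.05, against 3.87% of all genes. In the lists for melanocytes (3 of 7 markers analysed), keratinocytes (2 of 6), macrophages (3 of 6), pericytes (5 of 6) and skeletal muscle (1 of 6), 0 genes were called by limma and 0 by DESeq2, and the groups overlapped for every gene. At an unadjusted p under 0.05, 1 pericyte marker was lower and 1 keratinocyte marker higher, against 3.87% and 3.59% of all genes. The most abundant genes of these lists were *Mitf*, *Krt10*, *Lyz2*, *Notch3* and *Des*, and the part of these cell types in the results was not tested.

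For the 6 genes that averaged at least 20 normalised counts, the genes with the most similar log2 counts were picked by Pearson's r over the 8 libraries among 12777 genes, as a description. For *Gap43* they were *Nes*, the gene of the intermediate filament nestin (r = 0.99), and *Cadm1*, an adhesion molecule gene (r = 0.99), with log2 fold changes of -1.76 and -2.22. For *Gfra2* they were *Lmnb2* (r = 0.98) and *Lsp1* (r = 0.97), for *Ngfr* *Gle1* (r = 0.98) and *Lpcat2* (r = 0.97), and for *Gfra1* *Nat9* (r = 0.97) and *Fibin* (r = 0.96). For *Bdnf* they were *Krr1* (r = 0.98) and *Snx7* (r = 0.97), and for *Gdnf* *Fyb2* (r = 0.96) and *Rrp8* (r = 0.95). With so many genes and 8 libraries, 17 to 62 genes reached an r of at least 0.9 with each of the 6.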

How the data were processed

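RNA of 4 control and 4 TGFβ1FKO fibroblast cultures was sequenced as paired-end, non-directional libraries, and samples were grouped by the genotype in the labels. Per the submitters' processing notes, CASAVA 1.8, HISAT2 2.0.5, featureCounts 1.5.0-p3, R 4.3.2 and DESeq2 1.42.0 were used on GRCm38. The authors left out genes with few counts. The deposited values are a signal that is never negative, read counts scaled by DESeq2's size factors, plus 0.5. The authors' columns with a mean, a fold change, its error, a statistic and p-values were not used.

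The 0.5 was subtracted. Dividing by the value of 1 read in a library then gave back whole reads for 100% of the values in each (tolerance of 0.1 read). Values of log2(count + 1) of all 15111 genes were compared with limma 3.58.1 (mean-variance trend, R 4.3.3), with Benjamini-Hochberg adjustment over all genes. The pseudocount of 1 understates changes of genes with few reads. The thresholds were 0.05 for the adjusted p and 0.6 for the size of the log2 fold change. On the recovered reads, edgeR 4.0.16 with the authors' size factors called 20 genes, and DESeq2 1.42.0 was run as well. Single genes were compared with exact permutation tests in Python 3.11.15, two-sided. The tests were checked on simulated data. Alternatives were other tests, scalings, pseudocounts of 0.5 and 5, filters, thresholds, a block for replicate numbers and leaving out single libraries.

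Within groups every pair of libraries differed by more than sampling noise (lowest chi-square for each degree of freedom 4.89). The floor was set at 3 reads, a limit for counting error alone, as PCR copies of a molecule can be read repeatedly. A gene was taken to be in the table through 1 group only where 2 times the reads of the lower group stayed under the lowest sum of reads of any gene. GENCODE M21 (GRCm38) gave coordinates and exon lengths for 15098 of the genes.

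The 9 genes and all lists were chosen with earlier results of these data known. Named are the 9 genes, list genes that were called, did not overlap between groups, were the most abundant of their list per kb or are direct ligands or receptors of the 9, *Tgfb1*, the most abundant and the defining marker genes, and the 2 genes most like each of the 9 with a mean of at least 20. Some genes that this rule covers are not reported here. Protein sequences were not used here.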

Additional observations from a re-analysis of the deposited data

Results flagged for a closer look

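Groups of 4 libraries were searched for a library far from the other 3, for the 8 genes, *Tgfb1*, *Artn* and the sums of the marker lists. Of 40 groups 2 held such a library, and chance gives about 2. *Ntrk2* had 25.7 normalised counts in control replicate 4, whereas the other control libraries had 9.56 to 11.2. The perineurial marker sum was 2845 in TGFβ1FKO replicate 3, and 2424 to 2486 in the other TGFβ1FKO libraries. Control replicate 1, with 29.2 normalised counts of *Gfra3*, was not far enough from control replicate 3 to be listed.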

How the results depend on the processing

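The direction of each of the 8 genes and of *Tgfb1* was the same under every alternative that tested the gene, except for *Ntrk2*, whose log2 fold change of -0.08 ran from -0.39 to 0.24 with single libraries left out and was above 0 without control replicate 4 (0.237) or TGFβ1FKO replicate 3 (0.243). The filter on the mean removed *Gfra3* and *Ntrk2*, and the filter on reads removed *Gfra3*. *Tgfb1* was called under all alternatives, and *Gap43* under 2 of them. With DESeq2 against 0, 56 genes were called over the whole table, 52 of them lower, and 1 of the 8 genes, *Gap43*. With DESeq2 against 0.6, 15 genes were called and 0 of the 8, with an adjusted p of 1 for *Gap43*. With edgeR 20 genes were called with the authors' size factors and 22 with TMM, with an adjusted p of 0.1 there were 25, and with a mean of at least 50, which tested 11561 genes, there were 4. With each library left out in turn, 5 to 32 genes were called in the table, 0 to 1 of the 8 genes, and the groups did not overlap in 1 to 3 of the 8. The 3 were *Ngfr*, *Gfra2* and *Gap43*, without TGFβ1FKO replicate 1. Beside *Gap43*, the groups also did not overlap for *Gdnf*, which was higher, without control replicate 1, for *Gfra1* without control replicate 3 and for *Gfra2* without control replicate 4, both of them lower. With 1 library fewer, 3.04% to 4.33% of all genes were lower without overlap and 2.51% to 5.01% higher. Apart from fewer genes or libraries tested, the cause was not tested. None of the 73 other pathway genes was called under any alternative run. TMM moved the median log2 fold change of all genes by -0.005.

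With the replicate number as a block, 31 genes were called in place of 13, and 0 of the 8, with an adjusted p of 0.0560 for *Gap43*. Deviations of libraries with the same number had correlations between -0.134 and 0.1, and not every library correlated best with its own number, so that the numbers were not taken as pairs. *Gfra3* and *Ntrk2* had at most 34 and 26 reads in a library, and how far depth and how far the spread between libraries set their intervals was not tested.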
